A study of Mus musculus with 6 samples.

Results

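Genes that mark fibroblasts, the perichondrium and tendon were followed in rib chondrocytes lacking Jab1: the transcription factors Twist1, Twist2, Prrx1, Scx and Mkx, the surface proteins Pdgfra, Thy1 and Tnmd, and the matrix proteins Postn and Dpt. All were taken by symbol from the deposited expression table, and each of the 10 was found among its 27734 genes. RNA was sequenced from primary chondrocytes of E18.5 mouse ribs, taken after pronase and overnight collagenase digestion with no culture step in the labels. The mutant group was Jab1flox/flox; Col2a1-Cre, a conditional knockout (cKO) with 3 libraries, and the other group was labelled wild type (WT), also with 3 libraries. Col2a1-Cre removes the floxed gene in cells that use, or whose precursors used, the cartilage collagen promoter, so fibroblasts and tendon cells outside that lineage would keep Jab1. Jab1, the product of Cops5, is the catalytic subunit of the COP9 signalosome, which takes the ubiquitin-like protein Nedd8 off cullin ligases. Libraries are called here by the number in their column names, 0, 1 and 2.

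The perichondrium is the fibroblast-like sheath around cartilage, whose cells can become chondrocytes or bone-forming cells. Twist1 and Twist2 are basic helix-loop-helix (bHLH) factors of early mesenchyme that hold back bone and cartilage maturation, and Prrx1 is a homeobox factor of limb and craniofacial mesenchyme. Tendon cells are set apart from cartilage by Scx, another bHLH factor, which drives Tnmd, and by the homeobox factor Mkx. In bulk RNA of digested ribs, more cells of a type and more RNA per cell cannot be told apart.

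Twist1 and Twist2 are close copies, and their difference in sequence is shown first because it decides whether short reads can tell them apart. Around the longest run that the annotated transcripts share, within the coding sequence of both, 127 of 143 bases (88.8%) were identical, and the longest identical run was 23 bases. Capitals mark the 16 bases that differ. The sequences are from GENCODE M21 transcripts (build GRCm38, plus strand), at chr12:33958320-33958462 for Twist1 and chr1:91801831-91801973 for Twist2.
Twist1: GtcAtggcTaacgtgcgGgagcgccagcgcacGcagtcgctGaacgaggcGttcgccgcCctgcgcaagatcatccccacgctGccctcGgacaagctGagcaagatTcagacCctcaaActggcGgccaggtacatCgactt
Twist2: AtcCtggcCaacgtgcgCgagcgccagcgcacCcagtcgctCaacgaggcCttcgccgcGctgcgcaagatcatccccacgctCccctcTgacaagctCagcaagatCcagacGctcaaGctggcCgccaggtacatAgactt
Reads were 50 bases long, and no 50-base word of a Twist1 transcript occurred in a transcript of another gene on either strand. For Twist2 45.7% of words lay opposite the antisense gene Gm29100, and whether the authors counted by strand is not given in the sources used here. Of the other members, Mkx shared 5.11% of its words with other genes on the same strand, while Prrx1 and Pdgfra shared 0.153% and 0.12%. On the opposite strand Pdgfra shared 4.84% of its words, with Gm42802 and Gm42803, Mkx 1.36% and Prrx1 0.117%.

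Cops5 was low in every mutant library, as a check of the labels. It measured 17.0, 18.0 and 17.2 FPKM in mutant libraries and 42.3, 39.8 and 40.1 FPKM in wild-type libraries (log2 fold change -1.18, limma adjusted p = 6.5e-04). FPKM scales fragments by gene length and library size, so levels of different genes can be set side by side. Totals were 571180 to 631534 FPKM per library, and read counts were not analysed here. Of 12 chondrocyte markers 10 were analysed, and they summed to 9920, 6120 and 5930 FPKM in mutant libraries 0, 1 and 2 and to 8690 to 10300 FPKM in wild-type libraries. Of the 10, 2 fell, Comp to 547, 500 and 476 FPKM in mutant libraries, against 785, 852 and 765 FPKM in wild-type libraries (limma adjusted p = 0.024), and Matn3 (adjusted p = 0.045), and none rose. Y-linked genes separated the genotypes: 4 of them summed to 14.6, 82.8 and 71.7 FPKM in mutant libraries and to at most 0.639 FPKM in wild-type libraries. Xist was 37.3, 0.0176 and 0.0244 FPKM in mutant libraries 0, 1 and 2 and 63.1 to 65.9 FPKM in wild-type libraries. Mutant library 0 thus held both Xist and Y-linked RNA. Embryo sex and genotype therefore cannot be told apart. A model with the Y-linked level cannot part them either, since within a genotype that level varied mainly among mutant libraries. The title of wild-type library 0 carries another date than the others.

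Twist1 and Prrx1, both mesenchymal transcription factors, rose in mutant libraries, and no member fell. Limma was run on log2(FPKM + 1) over the 14012 genes whose mean reached 1 FPKM, and the words rose and fell are kept for an adjusted p under 0.05. Of the 10 members 7 reached that mean, 2 rose and 5 did not pass. Over all genes tested, 6.07% were called, 3.48% higher and 2.59% lower in mutant libraries. The median log2 fold change of the 7 was 0.64, and that of all genes tested was 0.00. No member reached the mean through the mutant group alone, since all 7 averaged over 1 FPKM in wild type. Twist2, Thy1 and Dpt lay under the mean and are given by their values.

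Twist1 (chr12:33957671-33959829, plus strand, GENCODE M21 on GRCm38) measured 6.82, 7.31 and 8.04 FPKM in mutant libraries and 4.36, 3.76 and 4.37 FPKM in wild-type libraries. Every mutant library lay above every wild-type library. The means were 7.39 ± 0.614 FPKM in mutant and 4.16 ± 0.352 FPKM in wild-type libraries (SD, n = 3 each), a ratio of 1.78. On the log2(FPKM + 1) scale the fold change was 0.70 (95% interval 0.48 to 0.93, limma adjusted p = 0.019). Its direction held without any library, with fold changes of 0.64 to 0.75. The call did not hold without mutant library 1 or 2 (adjusted p = 0.062 and 0.072), without wild-type library 0, 1 or 2 (adjusted p = 0.072, 0.068 and 0.069), or with the Y-linked level in the model (fold change 0.46, adjusted p = 0.31).

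Prrx1 (chr1:163245119-163313710, minus strand) measured 32.8, 33.2 and 28.9 FPKM in mutant libraries and 18.4, 19.5 and 21.8 FPKM in wild-type libraries. These ranges were also apart, and the 3 mutant values lay close together. Its means were 31.6 ± 2.40 FPKM in mutant and 19.9 ± 1.74 FPKM in wild-type libraries (SD, n = 3 each), a ratio of 1.59. The log2 fold change was 0.64 (95% interval 0.42 to 0.87, limma adjusted p = 0.023). Without mutant libraries 0, 1 and 2 in turn the adjusted p was 0.050, 0.072 and 0.055, and without wild-type libraries 0, 1 and 2 it was 0.083, 0.088 and 0.056, each over the threshold, with fold changes of 0.59 to 0.71. With the Y-linked level in the model the fold change was 0.73 (adjusted p = 0.21).

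**Figure D1:**
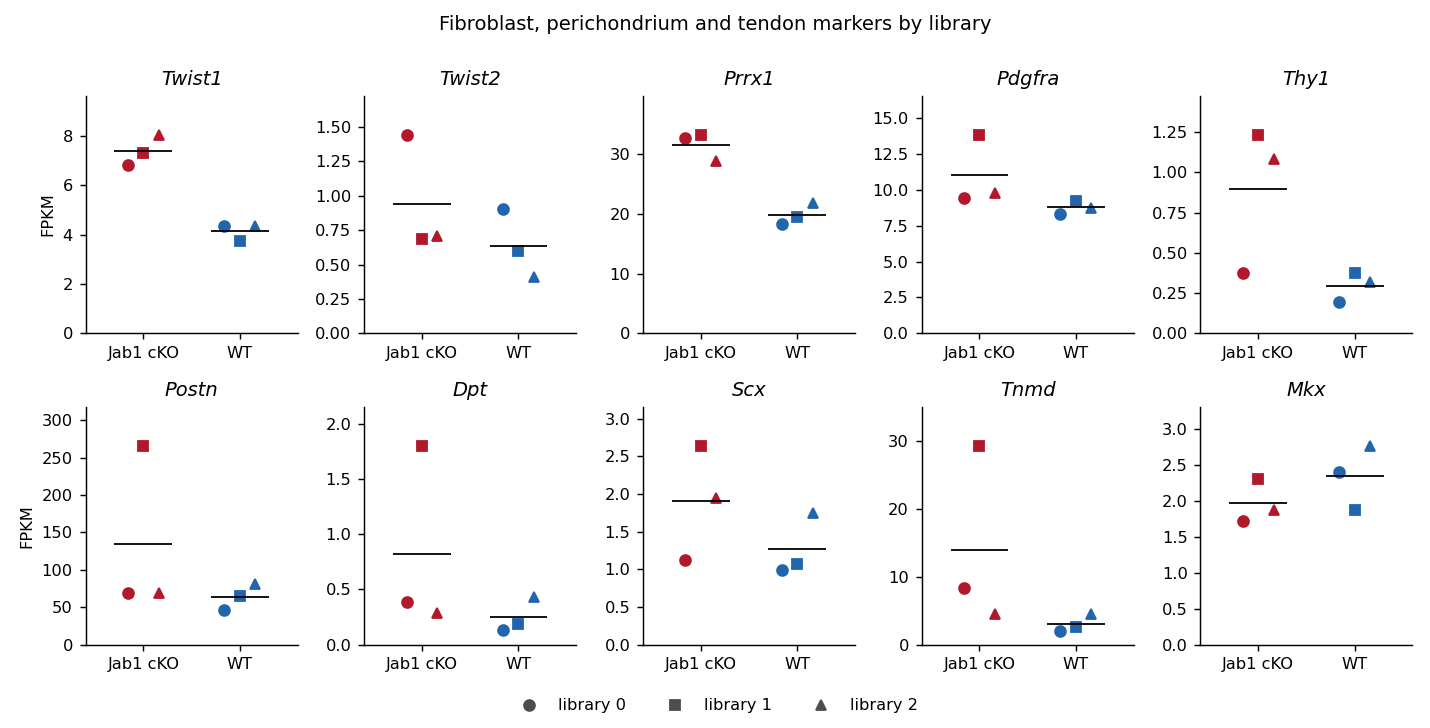
FPKM of each of the 10 markers (vertical axes, linear from 0, own scale per gene) in mutant (red, left) and wild-type (blue, right) libraries; marker shape gives the library number and the line the mean. Twist1 and Prrx1 are higher in all mutant libraries, while Postn, Dpt and Tnmd are high in mutant library 1.

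The bases just upstream of the called genes are shown because Twist and Scx proteins bind the E-box, CANNTG, whose sequence reads the same way on both strands for its fixed bases. The windows end before the first start annotated by either RefSeq or GENCODE, are taken from RefSeq promoters (build GRCm38.p6), and are 200 bases for Twist1 (chr12:33957471-33957670, plus strand) and 190 bases for Prrx1 (chr1:163313711-163313900, minus strand). Capitals mark TATAAA, the letters at the core of the TATA box. In the Twist1 window they lie nearer the upstream end than the gene start. Whether they work as a TATA box was not tested.
Twist1: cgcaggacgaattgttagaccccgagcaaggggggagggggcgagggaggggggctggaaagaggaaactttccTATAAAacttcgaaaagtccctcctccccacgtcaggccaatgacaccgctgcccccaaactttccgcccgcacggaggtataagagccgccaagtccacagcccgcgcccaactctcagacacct
Prrx1: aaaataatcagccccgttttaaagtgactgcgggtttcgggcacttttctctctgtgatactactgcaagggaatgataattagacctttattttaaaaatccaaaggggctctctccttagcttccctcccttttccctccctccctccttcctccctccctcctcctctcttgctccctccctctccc
Neither window held CANNTG, which occurred in 58.2% of 32851 RefSeq promoter windows of 200 bases. TATAAA occurred 1 time in the Twist1 window and 0 times on either strand in the Prrx1 window, and in 9.96% of promoter windows on either strand. The GC content was 60.5% for Twist1 and 48.9% for Prrx1, beside a median of 53.0%.

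The remaining factor of the Twist pair was scarce. Twist2 (chr1:91801461-91848028) was listed at 1.44, 0.683 and 0.706 FPKM in mutant libraries and at 0.901, 0.595 and 0.407 FPKM in wild-type libraries. The ranges overlapped, and the highest value was in mutant library 0. Without the filter on low values, where 1.66% of genes were called, its adjusted p in limma was 0.61. In each library Twist1 was the more abundant of the pair.

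Among the tendon factors, neither Scx nor Mkx passed. Scx (chr15:76457452-76459458), which specifies tendon progenitors, measured 1.12, 2.63 and 1.95 FPKM in mutant and 0.994, 1.07 and 1.75 FPKM in wild-type libraries (log2 fold change 0.33, 95% interval -0.29 to 0.95, limma adjusted p = 0.47). Mutant library 0 lay among the wild-type values, and the fold change was 0.54 without that library and 0.15 without mutant library 1. Scx lies within Bop1 on the opposite strand, though no 50-base word of its transcripts is shared. Mkx (chr18:6934518-7004780), which maintains tendon collagen, measured 1.72, 2.31 and 1.87 FPKM in mutant and 2.40, 1.88 and 2.76 FPKM in wild-type libraries (log2 fold change -0.17, 95% interval -0.54 to 0.20, adjusted p = 0.52). It was the 1 tested member with a lower mean in mutant libraries, and its fold change was -0.11 without mutant library 0, -0.27 without wild-type library 1 and -0.08 without wild-type library 2.

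Tnmd (chrX:133850980-133865577), the tendon membrane protein tenomodulin, had the widest spread relative to its level of the tested members. It measured 8.33, 29.2 and 4.43 FPKM in mutant libraries and 1.97, 2.54 and 4.47 FPKM in wild-type libraries. Mutant libraries 0 and 1 were above all wild-type values, and mutant library 2 was just under wild-type library 2. The log2 fold change was 1.58 (95% interval -0.01 to 3.17, limma adjusted p = 0.21). Without mutant library 1 it was 0.88 (adjusted p = 0.25), so that library carries much of the mean. Tnmd lies on the X chromosome, and with the Y-linked level in the model the fold change was 0.51 (adjusted p = 0.89).

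Pdgfra and Thy1, surface proteins used to sort mesenchymal cells, were higher in every mutant library than in any wild-type library, without a call. Pdgfra (chr5:75152292-75198215), a receptor of platelet-derived growth factor, measured 9.44, 13.8 and 9.77 FPKM in mutant and 8.32, 9.24 and 8.75 FPKM in wild-type libraries. The gap between the groups was small beside the spread of the mutant values, and the gene did not pass (log2 fold change 0.28, 95% interval -0.08 to 0.65, limma adjusted p = 0.31). Without mutant library 1 the fold change was 0.12, and with the Y-linked level in the model it was -0.20. Thy1 (chr9:44043384-44048579), a lipid-anchored glycoprotein, was listed at 0.375, 1.23 and 1.08 FPKM in mutant and 0.195, 0.374 and 0.317 FPKM in wild-type libraries. The ratio of means was 3.02, but the lowest mutant and highest wild-type values nearly touched, and the adjusted p without the filter was 0.27 in limma. Thy1 also marks T cells and neurons. T-cell markers summed to at most 0.0665 FPKM in mutant and 0.196 FPKM in wild-type libraries, and Schwann-cell and neuron markers to 1.42 to 2.20 and 1.18 to 1.86 FPKM. The 3 mutant values lay above all wild-type values for 3 of the 7 tested members (Twist1, Prrx1 and Pdgfra), against 16.3% of genes tested, and the reverse held for 0 of the 7, against 15.9%. With Thy1 it held for 4 of all 10 members, against 11.6% of all genes in the table.

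Postn (chr3:54361109-54391037), which encodes periostin of the periosteum and perichondrium, was the most abundant member. It measured 69.5, 265 and 69.2 FPKM in mutant libraries and 45.7, 64.5 and 80.8 FPKM in wild-type libraries. Mutant libraries 0 and 2 lay within the wild-type range, and mutant library 1 stood far above all others. The log2 fold change was 0.80 (95% interval -0.60 to 2.20, limma adjusted p = 0.44), and without mutant library 1 it was 0.16 (adjusted p = 0.75). Dpt (chr1:164796644-164824266), the small matrix protein dermatopontin, was listed at 0.390, 1.80 and 0.284 FPKM in mutant and 0.131, 0.187 and 0.429 FPKM in wild-type libraries. Here too a single mutant library was high, and the adjusted p without the filter was 0.54 in limma.

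**Figure D2:**
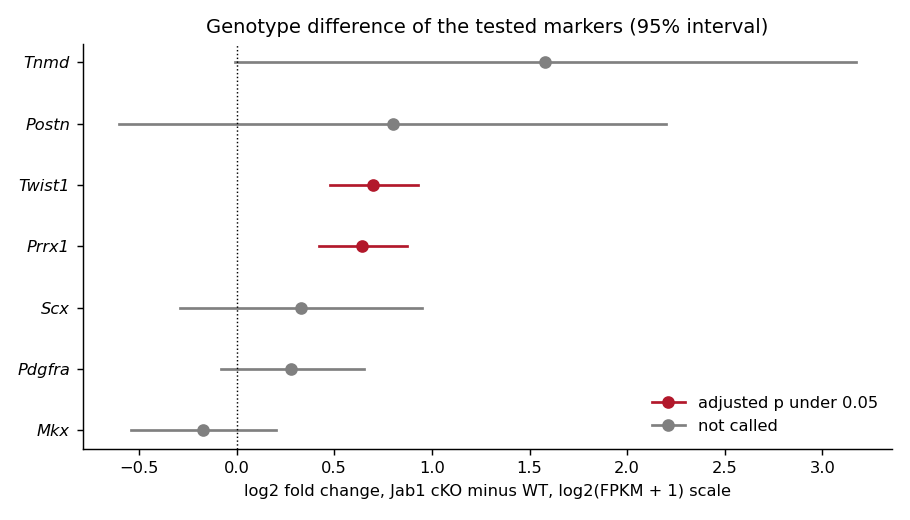
Fold change of the 7 tested markers as the mutant minus the wild-type mean of log2(FPKM + 1) (horizontal axis), with 95% intervals from limma; red, adjusted p under 0.05. The intervals of Twist1 and Prrx1 are narrow and above 0, and those of Tnmd and Postn are the widest.

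The order of the levels was alike in both genotypes apart from Tnmd. In mutant libraries Postn came first with a mean of 135 FPKM, followed by Prrx1 (31.6), Tnmd (14.0), Pdgfra (11), Twist1 (7.39), Mkx (1.96), Scx (1.90), Twist2 (0.942), Thy1 (0.894) and Dpt (0.823). In wild-type libraries it was Postn (63.7), Prrx1 (19.9), Pdgfra (8.77), Twist1 (4.16), Tnmd (3.00), Mkx (2.35), Scx (1.27), Twist2 (0.634), Thy1 (0.296) and Dpt (0.249). In mutant libraries neighbours had ranges that overlapped except Postn and Prrx1, Pdgfra and Twist1, and Twist1 and Mkx. In wild-type libraries the overlapping neighbours were Twist1 with Tnmd, Tnmd with Mkx, and Thy1 with Dpt.

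Mutant library 1 held the highest of the 6 values for 7 of the 10 members, namely Prrx1, Pdgfra, Thy1, Postn, Dpt, Scx and Tnmd. Of the 7 tested members this held for 5 (71.4%), and of all genes tested for 12.3%. Its value over the mean of mutant libraries 0 and 2 was 5.34 for Dpt, 4.57 for Tnmd, 3.82 for Postn, 1.72 for Scx, 1.70 for Thy1 and 1.44 for Pdgfra. The same ratio was 1.29 for Mkx, 1.08 for Prrx1, 0.983 for Twist1 and 0.637 for Twist2. Of the 14 other tendon and ligament genes tested, 4 (28.6%) were highest in the same library, and the list's median log2 difference between it and the mean of the other mutant libraries was 0.04, against -0.01 over all genes tested. Some of that list, named here after their values were seen, were high there, while Egr1 (-1.80), Egr2 (-1.21), Tgfbi (-0.30) and Fmod (-0.26) had negative log2 differences. Thbs4, a tendon thrombospondin, measured 3.06, 14.2 and 1.65 FPKM in mutant libraries and 0.383 to 1.85 FPKM in wild-type libraries. For Aspn, which encodes asporin, the values were 26.7, 82.5 and 22.1 FPKM in mutant and 14.0 to 22.3 FPKM in wild-type libraries. Kera, which encodes keratocan, was listed at 0.416, 3.05 and 0.136 FPKM in mutant and at 0.0647 to 1.25 FPKM in wild-type libraries. Of the 19 other fibroblast genes tested, 6 (31.6%) were highest in mutant library 1, with a median log2 difference of 0.22. The share was 7.14% for other perichondrium and periosteum genes and 11.1% for other mesenchymal factors. For the bHLH and PDGF lists, described below, it was 0%.

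Markers of other cell types varied between libraries in other ways. Osteoblast markers summed to 50.3, 91.8 and 228 FPKM in mutant libraries 0, 1 and 2 and to 65.9 to 186 FPKM in wild-type libraries. Adipocyte markers summed to 2.31, 13.7 and 11.7 FPKM in mutant libraries, with mutant library 1 the highest, and to 1.87 to 4.12 FPKM in wild-type libraries. Most of each sum was Fabp4, while Adipoq, Lep and Plin1 stayed under 1 FPKM everywhere. Endothelial markers summed to 1.37, 8.60 and 9.97 FPKM in mutant and 2.49 to 4.34 FPKM in wild-type libraries. Skeletal muscle markers summed to 49.8 to 72.3 FPKM in mutant and 139 to 169 FPKM in wild-type libraries. Of those 7, Tnnt3 made up most of the sum and fell (51.8 FPKM in mutant and 141 FPKM in wild-type libraries on average, limma adjusted p = 0.017), while the groups overlapped for the others. Pericyte and smooth muscle markers summed to 126 to 205 FPKM in mutant and 206 to 258 FPKM in wild-type libraries, with Acta2 lower (adjusted p = 0.047) and Mcam higher (adjusted p = 0.040). Erythroid markers summed to 13.9 to 44.9 FPKM in mutant and 175 to 200 FPKM in wild-type libraries. Of those 5, only 4 were tested, and all 4 fell. Granulocyte markers summed to 0.891 to 6.93 FPKM in mutant and 64.9 to 186 FPKM in wild-type libraries. Of those 5, only 2 were tested, and these 2 fell. Macrophage markers summed to 9.46 to 36.4 FPKM in mutant and 30.2 to 62.4 FPKM in wild-type libraries. Lyz2 made up most of the wild-type sum, and the groups overlapped for the other macrophage markers. Lyz2 averaged 7.57 FPKM in mutant and 31.1 FPKM in wild-type libraries (limma adjusted p = 0.064). No marker in any of these lists was at 0 in every library. The part of these differences in the values of the 10 members was not tested.

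**Figure D3:**
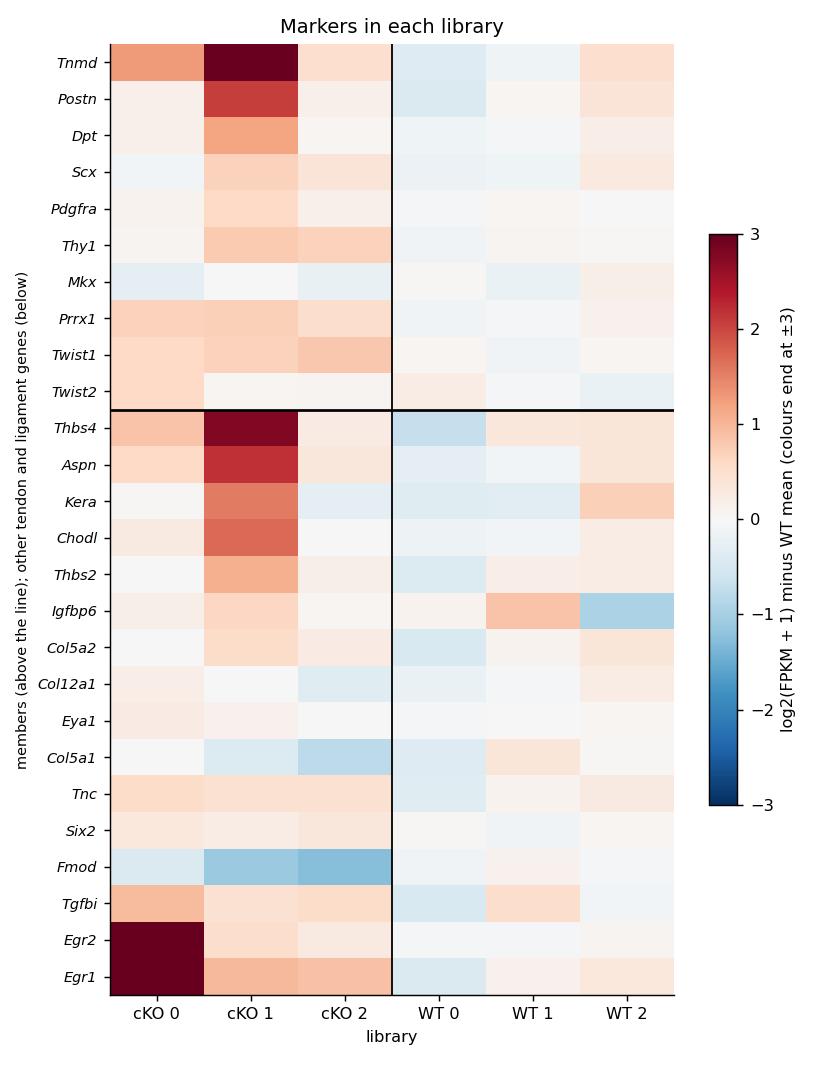
Each library's log2(FPKM + 1) minus the wild-type mean for the 10 members and other tendon and ligament genes (rows), with mutant libraries left of wild-type libraries; colours end at 3 units on either side, which Egr1 and Egr2 pass in mutant library 0. Tnmd, Postn and Dpt stand out in mutant library 1, beside Thbs4, Aspn and Kera, most of the other tendon and ligament genes do not, and Twist1 and Prrx1 are raised in all 3 mutant libraries.

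Other fibroblast genes moved in both directions. Of 23 listed genes 19 were tested, 1 rose, 3 fell and 15 did not pass, with a median log2 fold change of 0.12. Over all genes tested, 3.48% were called higher and 2.59% lower. S100a4, a calcium-binding protein of motile mesenchymal cells, rose to 285, 451 and 524 FPKM in mutant libraries, against 156, 141 and 99.8 FPKM in wild-type libraries (limma adjusted p = 0.034). The small proteoglycans lumican and decorin fell: Lum measured 282, 414 and 334 FPKM in mutant and 662, 593 and 620 FPKM in wild-type libraries (adjusted p = 0.036). Dcn measured 305, 363 and 355 FPKM in mutant and 518, 524 and 469 FPKM in wild-type libraries (adjusted p = 0.040), and the matrix cross-linking enzyme Loxl1 fell to 13.0 ± 1.28 FPKM, against 17.5 ± 0.290 FPKM in wild-type libraries (adjusted p = 0.047). Both proteoglycans are also made by chondrocytes. Fn1, fibronectin, measured 570 ± 193 FPKM in mutant and 547 ± 24.5 FPKM in wild-type libraries (adjusted p = 0.99). The number higher was 0 without mutant library 1 or 2 or any wild-type library, and the number lower was 1 without mutant library 0 or 1 and 0 without mutant library 2 or any wild-type library.

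Of 17 other tendon and ligament genes 14 were tested, 1 rose, 0 fell and 13 did not pass. The shares of all genes tested were 3.48% higher and 2.59% lower. The list median was 0.46, with Egr2 included, which reached the mean of 1 FPKM through mutant library 0. Egr2 averaged 0.207 FPKM in wild-type libraries, and a median without it was not computed. Fmod, the tendon and cartilage proteoglycan fibromodulin, measured 317, 198 and 177 FPKM in mutant and 401, 471 and 416 FPKM in wild-type libraries without passing (limma adjusted p = 0.074). Tgfbi measured 184 ± 35.7 FPKM in mutant and 120 ± 42.4 FPKM in wild-type libraries (adjusted p = 0.21). Without any single library the number higher was 0, and without mutant library 0 the number lower was 1.

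Of 15 other genes of the perichondrium and periosteum 14 were tested. In this list 1 gene was called higher and 2 lower, against 3.48% and 2.59% of all genes tested. Gli1, a target of Hedgehog signalling that marks perichondrial progenitors, fell to 3.12 ± 0.488 FPKM in mutant libraries, against 13.1 ± 2.65 FPKM in wild-type libraries (log2 fold change -1.76, limma adjusted p = 0.0071). Ptch1, the Hedgehog receptor and also a target, fell to 14.3 ± 3.38 FPKM, against 26.7 ± 2.47 FPKM in wild-type libraries (adjusted p = 0.045). The 1 gene called higher was the growth factor receptor gene Fgfr2, at 128, 118 and 113 FPKM in mutant libraries, whereas each wild-type library lists it at 0, so no fold is given. It reached the mean of 1 FPKM through the mutant group alone and so had to differ, and its call is no support for the list. GENCODE M21 gives the gene a wide span, chr7:130162451-133123350. Whether its wild-type values of 0 reflect absence or the way reads were assigned was not tested. Ogn, which encodes osteoglycin, measured 311 ± 28.6 FPKM in mutant and 230 ± 33.0 FPKM in wild-type libraries (adjusted p = 0.12), and Ctsk 113 ± 64.6 and 56.8 ± 10.1 FPKM (adjusted p = 0.26). The median without Fgfr2 was 0.05. The number lower was 1 without mutant library 1 or 2 or any wild-type library.

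None of the other mesenchymal transcription factors passed in limma, with 9 of 20 listed genes tested and a median of 0.26. Of the 9, Msx1 averaged 0.861 FPKM in wild-type libraries and reached the mean of 1 FPKM through the mutant group. Before adjustment p was under 0.05 for 4 that were higher and 1 that was lower, and for 24.7% of all genes tested. Snai2, a zinc-finger repressor, measured 79.9, 51.5 and 54.8 FPKM in mutant and 31.1, 38.2 and 33.1 FPKM in wild-type libraries (limma adjusted p = 0.060). Prrx2, the paralog of Prrx1, measured 3.94, 6.80 and 4.45 FPKM in mutant and 1.04, 1.81 and 2.47 FPKM in wild-type libraries (adjusted p = 0.063). Both had groups that did not overlap. Alx1, a homeobox factor of cartilage and facial mesenchyme, measured 46.0 ± 8.10 FPKM in mutant and 71.0 ± 9.16 FPKM in wild-type libraries (adjusted p = 0.088). Without mutant library 0 the number higher was 1.

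The partners that Twist and Scx proteins pair with, Tcf3, Tcf4 and Tcf12, and the Id proteins that compete for those partners formed a list of 7, all tested. In it 2 genes rose and 0 fell, against 3.48% higher and 2.59% lower over all genes tested. Id4 rose to 74.7, 63.1 and 73.4 FPKM in mutant libraries, against 40.4, 39.3 and 42.5 FPKM in wild-type libraries (limma adjusted p = 0.013). Id3 rose to 261, 179 and 224 FPKM, against 118, 99.1 and 133 FPKM in wild-type libraries (adjusted p = 0.043). Id2 measured 253 ± 57.2 FPKM in mutant and 166 ± 11.2 FPKM in wild-type libraries without passing (adjusted p = 0.10). In the whole list 5 genes did not pass, and the median log2 fold change was 0.59. None of the 3 partners passed, with fold changes of -0.06 for Tcf3, -0.18 for Tcf4 and -0.08 for Tcf12. The number higher was 1 without mutant library 0 or 1 and 0 without mutant library 2 or any wild-type library.

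Of 6 other genes of the PDGF axis, 5 were tested with a median of 0.10, and none passed in limma. Before adjustment p was under 0.05 for 4 of them, 2 higher and 2 lower, and for 24.7% of all genes tested. Pdgfc, a ligand of Pdgfra, measured 3.48 ± 0.352 FPKM in mutant and 2.25 ± 0.273 FPKM in wild-type libraries (limma adjusted p = 0.073). The second receptor gene, Pdgfrb, measured 11.6 ± 4.69 FPKM in mutant and 5.86 ± 1.04 FPKM in wild-type libraries (adjusted p = 0.14), and Pdgfrl 19.5 ± 4.24 and 26.2 ± 1.35 FPKM (adjusted p = 0.17).

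**Figure D4:**
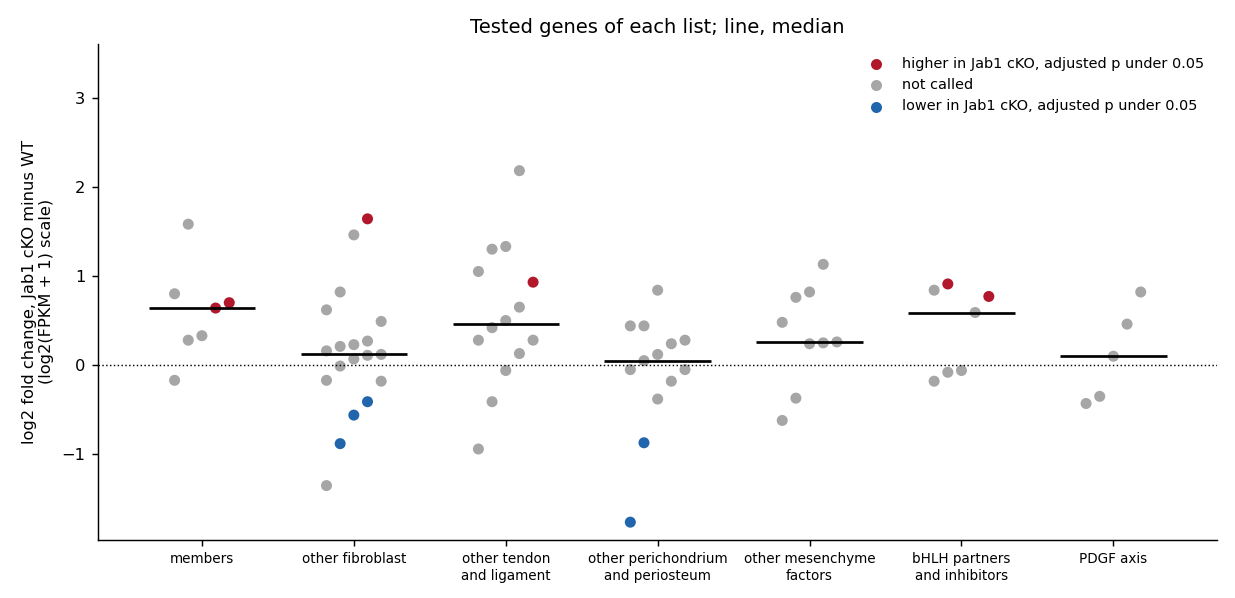
Log2 fold change (mutant minus wild type) of each tested gene in the 10 markers and 6 related lists; red, higher and blue, lower in mutant libraries at an adjusted p under 0.05, line, median; Fgfr2, listed at 0 in wild type, is not drawn. No gene is called in the lists of other mesenchyme factors and the PDGF axis. Among the drawn genes only the fibroblast list holds calls in both directions. The perichondrium list does too when Fgfr2, called higher, is counted.

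The genes most like each tested member over the 6 libraries, by Pearson correlation of log2(FPKM + 1), are given as a description, since genes were picked as the closest of all others over 6 points that share the genotype difference. Twist1 was closest to Cgref1 (r = 0.9983), and Prrx1 to the endonuclease gene Mus81 (r = 0.9966) and Plxdc2 (r = 0.9950). Each of these 3 rose in mutant libraries, with Plxdc2 at 6.90 ± 1.62 FPKM in mutant and 1.64 ± 0.563 FPKM in wild-type libraries (limma adjusted p = 0.023). Tnmd was closest to Lrrn3 (r = 0.9939) and Aspn (r = 0.9884), and Postn to Ly6e (r = 0.9851) and Smc6 (r = 0.9825). The closest genes for Pdgfra were Npat (r = 0.9875) and Lrba (r = 0.9870), for Scx Kctd11 and the iron exporter gene Slc40a1 (r = 0.9841 for both), and for Mkx Slc25a14 (r = 0.9743) and Pcyox1 (r = 0.9737). None of the genes named as closest to these 5 members passed in limma.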

How the data were processed

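Expression was measured by stranded total RNA sequencing depleted of ribosomal RNA, with single-end reads of 50 bases, per the labels' protocols. The authors deposited FPKM values in 1 table with 6 library columns. The submitters' processing notes name STAR, Cufflinks, Cuffdiff and mm10, CLC Genomics Workbench appears in the labels' protocols, and versions, settings and strand use are not given in the sources used here. Columns 0 and 1 of each group match a sample's description, while column 2 matches its group only, since descriptions are numbered 0, 1 and 3. The labels do not say that libraries came from separate embryos, so p-values measure the spread between libraries, which may be technical. Mutant library 0 differed in Xist from mutant libraries 1 and 2 (37.3 against 0.0176 and 0.0244 FPKM), so it was not a repeat of the same RNA. The table gives no counts, so the depth behind each value is unknown and no counting interval is given.

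Values were transformed as log2(FPKM + 1), which understates changes of low genes. Genes averaging 1 FPKM or more over the 6 libraries entered limma 3.58.1 under R 4.3.3 (genotype as the only term, moderated with an intensity trend), two-sided, with Benjamini-Hochberg adjustment over all genes tested, after a check on simulated data. Fold changes are mutant minus wild type. Members and lists (6 related lists and 11 of cell type markers) were chosen with earlier results of these data known. The text names the members, Cops5, in each related list the 2 lowest p and the 2 highest means, and the 2 genes most like each tested member, leaving out Gm and Rik symbols; some genes so chosen are not reported here. Others are named after their values were seen, as are Dcn, Loxl1, Ptch1, Xist and the bHLH partners. Of the gene identifiers, 99.4% matched GENCODE M21 without their version. Alternatives were the filter removed or raised to 5 FPKM, pseudocounts of 0.1 and 0.5, median-of-ratios and quantile scaling, leaving out each library, a replicate block and a Y-linked covariate (the mean log2 level of Ddx3y, Uty, Kdm5d and Eif2s3y). Some marker genes are not analysed here.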

Additional observations from a re-analysis of the deposited data

How the results depend on the processing

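Twist1 and Prrx1 were higher in mutant libraries under all 14 alternatives, with log2 fold changes of 0.46 to 0.81 and 0.59 to 0.73, and kept their calls under both pseudocounts, both filters and both scalings. The number of members higher was 0 with the Y-linked covariate and 0 to 1 when a library was left out, and no member was called lower in any setting. Changed genes over the whole table numbered 850, but 461 without the filter, 236 with the Y-linked covariate, and 174 to 666 when a library was left out. They were 174, 192 and 178 without wild-type libraries 0, 1 and 2 and 288 and 197 without mutant libraries 1 and 2. The causes were not tested.

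With the Y-linked covariate the fold changes turned to -0.20 for Pdgfra, -0.96 for Postn and -0.74 for Scx, none of them called. The untested values turned to -0.51 for Thy1 and -0.40 for Dpt, while Twist2 moved to 1.10. These values are not adjusted for sex, since the covariate was near its floor in every wild-type library and within a genotype varied mainly among mutant libraries. Standard errors grew with it, from 0.0915 to 0.217 for Twist1 and from 0.568 to 1.35 for Postn. In the related lists this covariate gave 0 lower fibroblast genes, 2 higher tendon and ligament genes, 0 lower perichondrium genes, 1 higher mesenchymal factor and 1 higher bHLH partner or inhibitor. Without the filter there were 0 higher and 0 lower fibroblast genes, 0 higher tendon and ligament genes, 1 lower perichondrium gene and 1 higher bHLH gene. A minimum mean of 5 FPKM left 0 higher tendon and ligament genes, and quantile normalization 1 higher bHLH gene. Leaving out a library gave 0 to 1 higher and 0 to 1 lower fibroblast genes, 0 higher and 0 to 1 lower tendon and ligament genes, 1 to 2 lower perichondrium genes, 0 to 1 higher mesenchymal factors and 0 to 1 higher bHLH genes.

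The shared replicate numbers did not pair the libraries: deviations from the group mean correlated at -0.0328, -0.0421 and -0.0226 for numbers 0, 1 and 2. With the replicate block 60 genes changed in all, 0 members were higher (adjusted p = 0.11 for Twist1 and 0.14 for Prrx1), and the lists held 0 higher and 0 lower fibroblast genes, 0 higher tendon and ligament genes, 1 lower perichondrium gene and 0 higher bHLH genes.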

Other observations

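Mutant library 0 stood apart for the early growth response factors, zinc-finger proteins induced by mechanical load in tendon and by many stimuli elsewhere. Egr1 measured 145, 10.1 and 9.29 FPKM in mutant libraries 0, 1 and 2 and 3.16, 5.11 and 6.01 FPKM in wild-type libraries (limma adjusted p = 0.27). Egr2 was listed at 10.2, 0.734 and 0.443 FPKM in mutant and at 0.185, 0.154 and 0.280 FPKM in wild-type libraries (adjusted p = 0.36), and it reached a mean of 1 FPKM through mutant library 0.

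Collagen genes of fibrous tissue differed in whether they were high with Postn in mutant library 1. Col3a1 measured 112, 198 and 78.1 FPKM in mutant and 53.0, 88.6 and 98.8 FPKM in wild-type libraries (limma adjusted p = 0.39), with its highest value in mutant library 1. Col1a1, the main collagen of tendon and bone, measured 21.0, 67.3 and 53.9 FPKM in mutant and 52.1, 142 and 178 FPKM in wild-type libraries (adjusted p = 0.24), with its lowest value in mutant library 0. Col14a1 and Col5a2 were also highest in mutant library 1, at 18.4 and 68.2 FPKM. Col1a2, Col5a1 and Col12a1 had their highest value in a wild-type library. Eln, elastin, measured 67.7, 32.5 and 38.4 FPKM in mutant and 9.80, 24.0 and 15.2 FPKM in wild-type libraries, with groups that did not overlap and no call (adjusted p = 0.092).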
